A study of Homo sapiens with 2 samples.

Results

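The genes described here are 9 rows of the count table: the cathepsins CTSL, CTSB, CTSD, CTSC and CTSZ, the carboxypeptidase CPVL, and the lysosomal membrane genes LAPTM4A, LAPTM4B and LAPTM5. All 9 symbols were present among the 19826 genes of the table. They belong to families of lysosomal genes, and the set was chosen by family with the measured ratios of these same libraries already known, CPVL and LAPTM5 having been selected on their ratio between the doses. The values of that contrast are therefore a description and support nothing further.

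The cells came from MDA-MB-231, a human breast cancer cell line that lacks hormone receptors and HER2 and looks mesenchymal in culture. They were grown as flat cultures in high-glucose medium for 30 days, with 2 mM metformin in one arm and with 0 mM in the other, which the labels name Wildtype. Both arms were then grown for 10 days as mammospheres, floating spheres on low-attachment plates, and were taken apart with trypsin and EDTA for single-cell RNA libraries. Metformin is a biguanide drug given in type 2 diabetes. The labels do not say whether it stayed in the mammosphere medium. Each dose had 1 library from 1 cell line, which leaves the spread between replicates unknown, and no test was possible.

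Cathepsins are proteases that work inside lysosomes, the acidic compartments in which cells break down proteins and lipids. They are made as inactive precursors, are tagged with a phosphorylated mannose in the Golgi, are carried to the lysosome by receptors that bind this tag, and are activated there by acid and by each other. Cells can also secrete them, and in breast cancer CTSB, CTSL and CTSD are known for degrading matrix outside the cell. LAPTM proteins span the membranes of late endosomes and lysosomes, and several of them steer cargo or ubiquitin ligases to these membranes.

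After barcodes with few transcripts were removed, the 2 mM library held 991 cells with 3264343 unique molecular identifiers (UMIs, random tags that each mark 1 captured transcript), and the 0 mM library 1000 cells with 4403045 UMIs. The median was 2509 UMIs per cell at 2 mM and 3386 at 0 mM. Levels are given as CPM, the UMIs of a gene summed over cells and scaled to a common library total. All intervals are 95% intervals for counting error alone. They take UMIs as independent and are therefore too narrow for genes whose UMIs crowd into few cells. The libraries shared 0 barcodes, but 164 barcodes at 2 mM and 111 at 0 mM lay 1 base apart from another barcode of their library. Of 7 compared mesenchymal markers of the line, 2 were at least 1.5-fold higher at 2 mM and 3 at least 1.5-fold lower. Among all compared genes these shares were 5.04% and 3.31%. VIM, the mesenchymal filament and 1 of the 3 lower, stood at 1596 CPM with metformin against 3271 CPM without. The markers thus went both ways, and VIM does not stand for the list. Of 12 leukocyte markers 4 had a row in the table, and their summed level was 17.8 CPM at 2 mM and 8.18 CPM at 0 mM. PTPRC, which defines leukocytes, had 1 UMI at 2 mM and 0 at 0 mM. The 7 fibroblast markers summed to 6.74 CPM at 2 mM and 4.09 CPM at 0 mM.

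CPVL was the 1 member at least 1.5-fold higher at 2 mM, and LAPTM5 the 1 member at least 1.5-fold lower. The comparison covered 4105 genes that reached 50 CPM in one of the libraries and 50 UMIs in all. Of these, 5.04% were at least 1.5-fold higher at 2 mM and 3.31% were lower by as much. With TMM factors in place of library totals, 140 genes were higher and 223 lower, against 207 and 136 with totals. All 9 members passed the minimum, and the other 7 lay within 1.5-fold, 4 of the 9 above a ratio of 1 and 5 below. The median log2 ratio was -0.065 over the members and 0.019 over all compared genes. Since the contrast served to choose the members, nothing is read from their count.

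**Figure D1:**
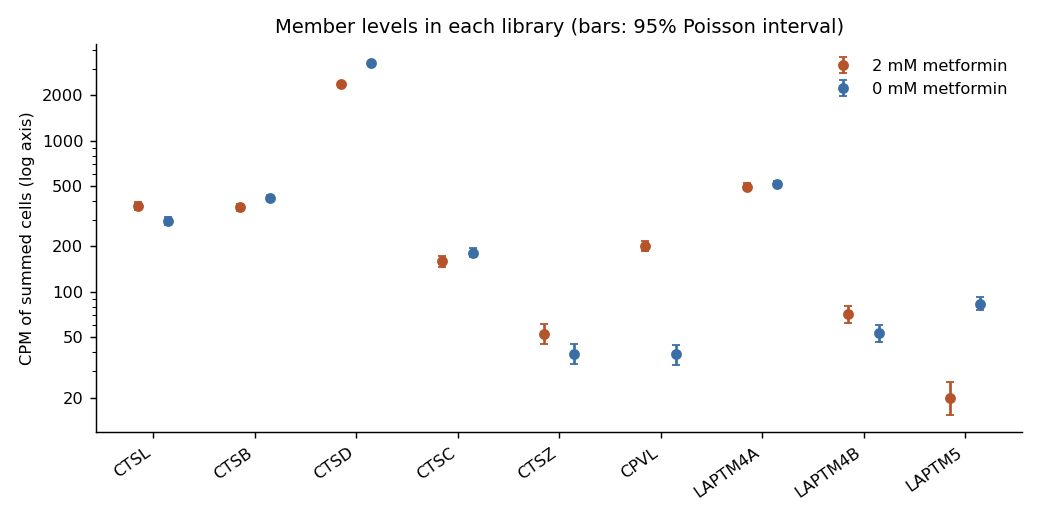
Levels of the 9 genes in CPM of summed cells (log axis) in the 2 mM and the 0 mM library, with bars for the 95% Poisson interval of each sum. CPVL stood at 202 CPM at 2 mM against 38.6 CPM at 0 mM, LAPTM5 at 19.9 CPM against 83.8 CPM, and the other 7 genes differed by less than 1.5-fold.

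CPVL encodes a serine carboxypeptidase first described in macrophages. It had 658 UMIs at 2 mM and 170 UMIs at 0 mM, or 202 CPM (186 to 218) at 2 mM against 38.6 CPM (33.0 to 44.9) at 0 mM. The ratio of 2 mM over 0 mM was 5.22 (4.40 to 6.22). LAPTM5, a lysosomal membrane protein known mainly from blood cells, where it sends receptors to the lysosome for degradation, had 65 UMIs at 2 mM and 369 at 0 mM. Its level was 19.9 CPM (15.4 to 25.4) at 2 mM against 83.8 CPM (75.5 to 92.8) at 0 mM, a ratio of 0.238 (0.180 to 0.310). Both genes are known for expression in myeloid or other blood cells. Of 12 leukocyte markers only 4 had a row in the table. CD14 had 52 UMIs at 2 mM and 20 at 0 mM, CSF1R 3 and 9, LYZ 2 and 7, and PTPRC 1 and 0. Whether CD14 or blood cells have a part in the CPVL or the LAPTM5 difference was not tested.

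The libraries differed in how many cells carried CPVL. It was found in 319 of 991 cells at 2 mM, or 32.2% (29.3% to 35.2%), and in 66 of 1000 cells at 0 mM, or 6.60% (5.14% to 8.32%). With every cell drawn down to 1000 UMIs, the share was 17.8% of 800 cells at 2 mM and 3.07% of 944 cells at 0 mM. Among deep cells, those with 5000 or more UMIs, CPVL was found in 91 of 192 cells at 2 mM and in 33 of 328 at 0 mM, which are 47.4% (40.2% to 54.7%) and 10.1% (7.03% to 13.8%). Within the deep cells that carried it, its level was 336 CPM at 2 mM against 355 CPM at 0 mM. Over carriers of all depths it was 522 CPM at 2 mM against 404 CPM at 0 mM, the other way round, and a single deep 0 mM cell held 22 UMIs of CPVL. The share of carriers thus differed several-fold, while the level within carriers had no steady direction. A level within carriers is bounded from below, because a cell enters with its first UMI.

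CPVL was also spread unevenly over the deep cells. No CPVL UMI was found in 52.6% of the deep cells at 2 mM and in 89.9% at 0 mM, where an even spread at the same mean and depth would leave 31.7% and 71.5% without one. CPVL was not alone in this. CTSL was missing from 26.6% of deep cells at 2 mM, against 7.11% under an even spread, and LAPTM5 from 64.9% at 0 mM, against 52.0%. CTSZ, missing from 70.8% at 2 mM, lay near its even spread of 71.2%. The 2 mM cell richest in CPVL held 13 UMIs of it. Without the 1% of cells richest in CPVL, the log2 ratio was 3.02 against 2.38 with them. The ratio also varied with depth. It was 18.4 (8.70 to 46.5) in cells under 2000 UMIs, where the 0 mM library gave only 7 UMIs. It was 5.18 in cells of 2000 UMIs to under 5000 and 3.86 in deep cells. The CPVL level at 2 mM fell over these depth ranges, from 331 CPM to 206 and 158 CPM. At 0 mM the level was lowest in cells under 2000 UMIs and was 39.9 and 40.9 CPM in the deeper ranges. No cell type that should lack these genes was present, so the part of free RNA in these shares and levels was not tested.

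LAPTM5 had fewer carriers at 2 mM. It was found in 51 cells at 2 mM, or 5.15% (3.86% to 6.71%), and in 215 cells at 0 mM, or 21.5% (18.99% to 24.2%). At 1000 UMIs per cell the shares were 2.00% and 7.20%. In deep cells the share was 12.5% (8.18% to 18.03%) at 2 mM and 35.1% (29.9% to 40.5%) at 0 mM, and the level within carriers was 178 CPM at 2 mM against 227 CPM at 0 mM. Cells with 3 or more LAPTM5 UMIs numbered 2 at 2 mM and 41 at 0 mM. At 1000 UMIs per cell, 5 cells at 2 mM and 2 cells at 0 mM carried both CPVL and LAPTM5. LAPTM5 was thus in 3.52% of CPVL carriers at 2 mM, beside 1.67% of cells without CPVL. At 0 mM it was in 6.90% and 7.21%. Counts this small are a description only.

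**Figure D2:**
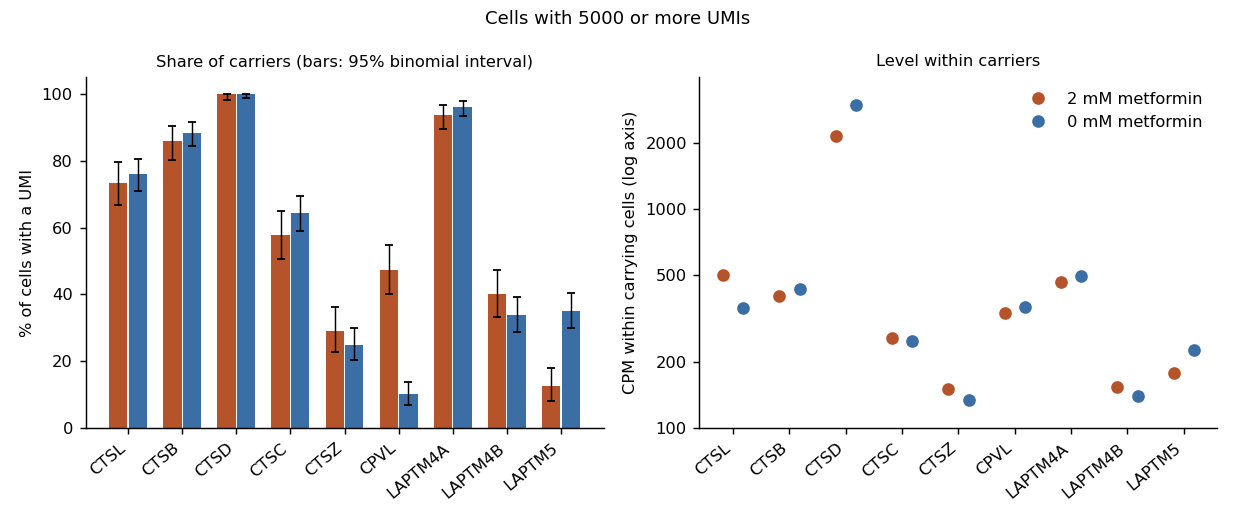
Cells with 5000 or more UMIs, 192 at 2 mM and 328 at 0 mM: the share of cells with a UMI of each gene, with 95% binomial intervals (left, percent), and the level within the cells that carry it (right, CPM, log axis). For CPVL the share was 47.4% at 2 mM and 10.1% at 0 mM, while the level within carriers was 336 and 355 CPM.

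The promoter windows of the genes that differed most between doses (CPVL, LAPTM5) and of those described next (CTSD, CTSL) are printed to show what the start sites look like. They run from 250 bases before to 50 after the start and come from RefSeq, build GRCh38.p14, not from the build of the counts. The windows are chr7:29195218-29195517 on the minus strand for CPVL window 1, chr7:29190008-29190307 on the minus strand for CPVL window 2, chr1:30757725-30758024 on the minus strand for LAPTM5, chr11:1763878-1764177 on the minus strand for CTSD and chr9:87725869-87726168 on the plus strand for CTSL. Windows were found for 7 of the 9 genes, 3 of them for CPVL. Capitals mark the only 2 motif matches in the windows of these 7 genes, an E-box (CACGTG) in CTSD and the core of an interferon response element (GAAANNGAA) in the second window of CPVL.

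CPVL window 1: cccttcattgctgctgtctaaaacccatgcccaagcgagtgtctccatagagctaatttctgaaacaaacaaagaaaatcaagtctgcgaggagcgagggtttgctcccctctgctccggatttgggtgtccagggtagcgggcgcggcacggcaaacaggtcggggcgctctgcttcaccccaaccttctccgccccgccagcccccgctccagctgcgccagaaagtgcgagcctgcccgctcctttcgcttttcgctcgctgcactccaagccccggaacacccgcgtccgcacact
CPVL window 2: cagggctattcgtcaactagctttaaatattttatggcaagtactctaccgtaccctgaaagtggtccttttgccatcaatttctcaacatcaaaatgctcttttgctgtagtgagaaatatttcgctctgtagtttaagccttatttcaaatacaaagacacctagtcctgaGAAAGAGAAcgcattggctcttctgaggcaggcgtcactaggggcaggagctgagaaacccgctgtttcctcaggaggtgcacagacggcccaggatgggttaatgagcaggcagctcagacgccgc
LAPTM5: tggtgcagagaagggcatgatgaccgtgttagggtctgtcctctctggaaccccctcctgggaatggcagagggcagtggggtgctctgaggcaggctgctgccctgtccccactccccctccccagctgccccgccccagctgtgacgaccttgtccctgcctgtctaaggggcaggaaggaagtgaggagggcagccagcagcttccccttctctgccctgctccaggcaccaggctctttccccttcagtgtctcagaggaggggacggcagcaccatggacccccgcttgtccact
CTSD: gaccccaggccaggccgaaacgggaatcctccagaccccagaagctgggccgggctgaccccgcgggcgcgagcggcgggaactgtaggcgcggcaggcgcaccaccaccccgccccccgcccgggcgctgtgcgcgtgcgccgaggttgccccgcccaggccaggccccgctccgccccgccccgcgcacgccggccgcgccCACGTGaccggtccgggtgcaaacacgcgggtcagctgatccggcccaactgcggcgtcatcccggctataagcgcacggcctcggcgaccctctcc
CTSL: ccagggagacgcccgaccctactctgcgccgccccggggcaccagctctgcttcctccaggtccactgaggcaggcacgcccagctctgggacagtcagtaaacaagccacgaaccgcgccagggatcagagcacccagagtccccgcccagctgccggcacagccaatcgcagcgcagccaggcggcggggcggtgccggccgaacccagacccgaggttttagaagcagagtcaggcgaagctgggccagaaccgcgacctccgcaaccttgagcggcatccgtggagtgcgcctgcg

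The E-box of CTSD began 47 bases before the start, and 7.26% of all 35116 RefSeq windows held an E-box on either strand. TFEB and its relatives, the main activators of lysosomal genes, bind E-boxes of the longer form TCACGTGA, which contains the E-box and was found in 0.980% of all windows and in none of the 7 genes' windows. The interferon core in CPVL began 77 bases before that start and was held by 8.11% of all windows. The TATA box (TATAAA, 11.5% of windows) and the AP-1 site (TGANTCA, 7.71%) had no match in the 7 genes' windows. The LAPTM5 window held 5 CpG dinucleotides and that of CTSD 43, beside a median of 14 over all windows. Which CPVL start was used in these cells cannot be read from the counts, and a match is a string of letters, not evidence of binding.

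CTSD, the main aspartic protease of lysosomes, had 7808 UMIs at 2 mM and 14514 UMIs at 0 mM. Its level was 2392 CPM (2339 to 2446) at 2 mM against 3296 CPM (3243 to 3350.4) at 0 mM, a ratio of 0.726 (0.706 to 0.746). Unlike CPVL, it was found in nearly every cell, 94.2% at 2 mM and 98.2% at 0 mM, and in all 192 and all 328 deep cells. The shift lay in the amount per cell. At 1000 UMIs per cell, the mean was 2.55 CTSD UMIs at 2 mM and 3.47 at 0 mM, the highest cell held 12 and 20, and the variance over the mean was 1.54 and 2.47. The spread between cells was thus wider at 0 mM.

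CTSL, a cysteine protease that also trims the invariant chain of class II molecules in some cells, had 1211 UMIs at 2 mM and 1301 at 0 mM. These are 371 CPM (350.4 to 392) at 2 mM against 295 CPM (279.6 to 312) at 0 mM, a ratio of 1.26 (1.16 to 1.36). Its share of cells at 1000 UMIs differed little, at 25.8% (22.8% to 28.9%) at 2 mM and 25.0% (22.3% to 27.9%) at 0 mM. A single 2 mM cell held 43 CTSL UMIs, while the highest 0 mM cell held 17. The log2 ratio of 0.33 was 0.22 without the 1% of cells richest in CTSL and 0.10 with the deepest 5% of barcodes left out, and it was 0.08 with cells thinned to 1000 UMIs before summing. By depth, the ratio was 1.35 in cells under 2000 UMIs, 1.01 in the middle range and 1.42 in deep cells, so the size of the CTSL difference depended on which cells were counted.

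CTSB, a cysteine protease with both endopeptidase and carboxypeptidase activity, had 363 CPM (343 to 384) at 2 mM against 419 CPM (400.1 to 439) at 0 mM, a ratio of 0.866 (0.805 to 0.932). CTSC, which removes dipeptides and is known for activating the granule proteases of immune cells, had 159.9 CPM at 2 mM against 182 CPM at 0 mM, a ratio of 0.878 (0.785 to 0.981). CTSZ, a carboxypeptidase, had 52.7 CPM from 172 UMIs at 2 mM and 38.8 CPM from 171 UMIs at 0 mM. Its ratio was 1.36 (1.09 to 1.69). In cells under 2000 UMIs the CTSZ ratio was 2.36 (1.25 to 4.70), from 39 UMIs at 2 mM and 14 at 0 mM. It was 1.12 (0.775 to 1.63) in the middle depth range and 1.22 (0.884 to 1.68) in deep cells. Summed over all cells, CTSL, CTSZ and CPVL were thus higher at 2 mM, while CTSD, CTSB and CTSC were lower. For CTSL and CTSZ the size depended on the cells counted.

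The 3 LAPTM genes also went different ways. LAPTM4A, a broadly expressed member of the family, had 498 CPM (474 to 523) at 2 mM against 521 CPM (500.1 to 543) at 0 mM, a ratio of 0.956 with an interval of 0.896 to 1.02 that included 1. LAPTM4B, whose gene is often gained in breast cancer and linked there to drug resistance and autophagy, had 71.1 CPM (62.2 to 80.8) at 2 mM against 53.4 CPM (46.8 to 60.7) at 0 mM, a ratio of 1.33 (1.11 to 1.60). Copies named as pseudogenes of CTSL (7) and LAPTM4B (2) exist in RefSeq, and CPVL overlaps CHN2 and 2 antisense genes there. Strand use in counting is not given in the sources used here, so these counts are less certain.

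Part of the cells of both libraries carried many interferon-induced transcripts. Interferon-high cells were defined as those with 5 or more UMIs of 22 interferon-induced genes, such as IFIT1, MX1 and ISG15, after thinning to 1000 UMIs. No member is on that list. They made up 168 of 800 cells at 2 mM, or 21.0% (18.2% to 24.0%), and 334 of 944 cells at 0 mM, or 35.4% (32.3% to 38.5%). The class is a range of a score and not a cell type, and 45 cells at 2 mM and 95 at 0 mM had 4 to 6 such UMIs, near the limit. The median depth of interferon-high cells was 3306.5 UMIs at 2 mM and 3277.5 at 0 mM, and that of the other cells 3009 and 3726.5.

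CTSL was higher in interferon-high cells than in the other cells of both libraries. At 2 mM it had 698 CPM in interferon-high cells against 275 CPM in the others, a ratio of 2.54 (2.26 to 2.86). At 0 mM it had 475 CPM in interferon-high cells against 209 CPM in the others, a ratio of 2.27 (2.04 to 2.54). Genes off the list that passed the same minimum were at least 1.5-fold higher in interferon-high cells for 10.2% of 4237 genes at 2 mM and 9.14% of 4112 genes at 0 mM. At least 1.5-fold lower were 12.1% at 2 mM and 12% at 0 mM. CTSL was found in 41.7% (34.1% to 49.5%) of interferon-high cells thinned to 1000 UMIs at 2 mM and in 34.7% (29.6% to 40.1%) of those at 0 mM. Among cycling cells, those with 3 or more S-phase or G2/M UMIs outside the interferon-high class, the shares were 18.8% at 2 mM and 17.9% at 0 mM. Among cells of neither class they were 22.7% and 21.0%.

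LAPTM5 followed the interferon score as well, at a lower level in the 2 mM library. At 2 mM it had 46.1 CPM in interferon-high cells and 12.5 CPM in the others, from 33 and 30 UMIs, a ratio of 3.69 (2.18 to 6.27). At 0 mM it had 116 CPM in interferon-high cells and 69.2 CPM in the others, a ratio of 1.68 (1.36 to 2.07). CTSC had a ratio of 1.32 (1.08 to 1.60) at 2 mM and 1.57 (1.36 to 1.80) at 0 mM, and CTSB 1.25 (1.10 to 1.43) and 1.41 (1.28 to 1.54). LAPTM4B was lower in interferon-high cells, at ratios of 0.664 (0.454 to 0.949) and 0.642 (0.467 to 0.871). CTSZ had ratios of 0.761 (0.490 to 1.15) at 2 mM and 0.659 (0.452 to 0.944) at 0 mM. The other cells include the cycling cells, where LAPTM4B was highest, at 91.2 CPM at 2 mM and 71.1 CPM at 0 mM. It had 51.7 and 39.1 CPM in interferon-high cells and 69.3 and 50.4 CPM in cells of neither class. CTSB was lowest in cycling cells, at 274 and 315 CPM. It had 433 and 521 CPM in interferon-high cells and 391 and 429 CPM in cells of neither class. Of the members that passed the minimum, 1 of 8 at 2 mM (CTSL) and 3 of 7 at 0 mM (CTSL, CTSC and LAPTM5) were at least 1.5-fold higher. Among all genes these shares were 10.2% and 9.14%. LAPTM4B was at least 1.5-fold lower in both libraries, beside 12.1% and 12% of all genes. The calls of CTSC at 0 mM and LAPTM4B at 2 mM depended on the setting. The log2 ratio of CTSC fell from 0.65 to 0.56 at 10 or more interferon-list UMIs and to 0.58 without the deepest 5% of barcodes, short of 1.5-fold. That of LAPTM4B was -0.59, but -0.39 at 3 or more and -0.55 at 10 or more such UMIs. LAPTM5 fell short of the minimum at 2 mM, and CTSZ and CPVL at 0 mM.

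CTSL did not climb steadily with the score. At 2 mM it had 225 CPM in cells with 0 interferon-list UMIs, 325 CPM at 1 to 2, 325 CPM at 3 to 4, 685 CPM at 5 to 9, 933 CPM (795 to 1088) at 10 to 19, and 583 CPM (503 to 671) at 20 or more. At 0 mM the levels in the same order were 168, 211, 377, 506, 519 and 406 CPM. The highest level in both libraries was that at 10 to 19, though at 0 mM its interval of 456 to 588 overlapped those of both neighbours. LAPTM5 at 2 mM had 57.7 CPM (34.7 to 90.1) at 20 or more and 13.2 CPM (7.56 to 21.5) at 0 interferon-list UMIs, with wide intervals between. At 0 mM it had 65.2 CPM at 0 interferon-list UMIs and 139 CPM (107 to 176) at 10 to 19. CPVL showed no order over the bins in either library.

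**Figure D3:**
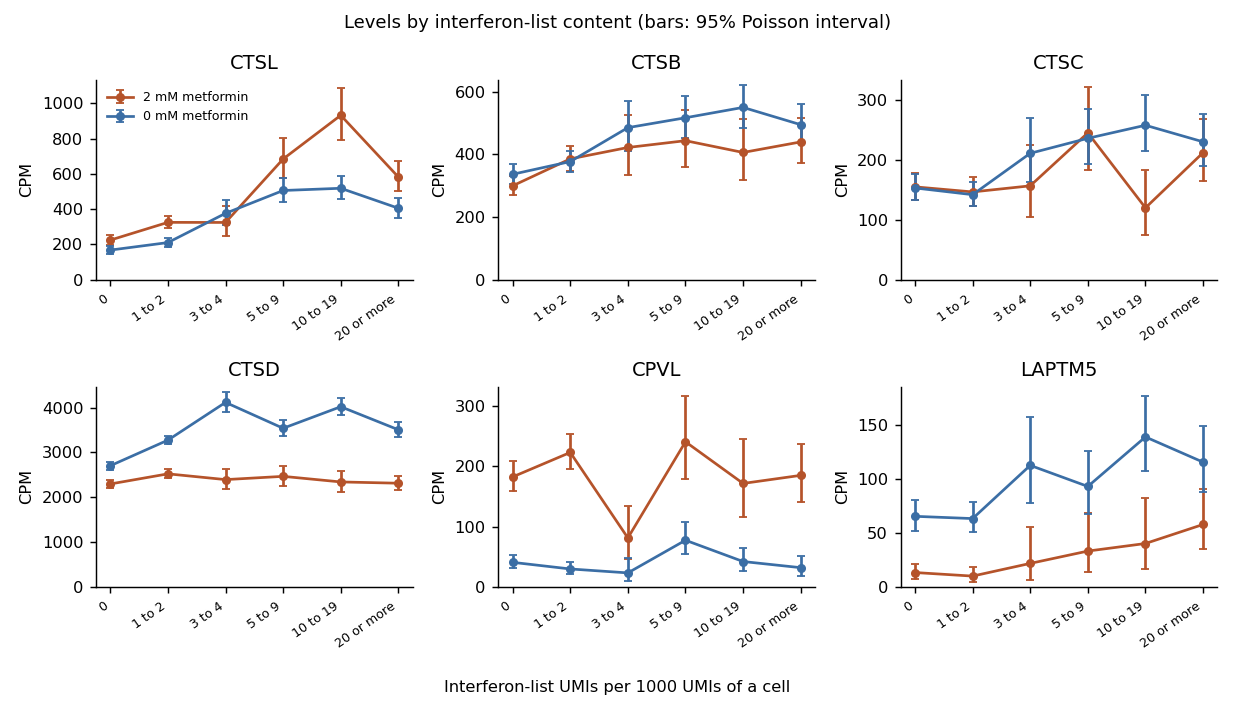
Levels of 6 genes (CPM, with 95% Poisson intervals) in cells grouped by their interferon-list UMIs per 1000 UMIs, by library, with 41 to 305 cells per point. CTSL was highest at 10 to 19, at 933 CPM with 2 mM against 519 CPM with 0 mM. CTSD at 2 mM stayed between 2296 and 2522 CPM. At 0 mM CTSD was lowest at 0 interferon-list UMIs (2703 CPM) and highest at 3 to 4 (4117 CPM), with 3506 CPM at 20 or more.

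The share of interferon-high cells differed between the doses, so each gene was also compared within classes. CPVL was higher at 2 mM in each class, with ratios of 3.999 (2.99 to 5.39) in interferon-high cells, 7.53 (5.09 to 11.5) in cycling cells and 4.50 (3.45 to 5.94) in the remaining cells. It had 198, 157 and 214 CPM in these classes at 2 mM and 49.6, 20.8 and 47.6 CPM at 0 mM. LAPTM5 was lower at 2 mM in each class, with ratios of 0.397 (0.265 to 0.580), 0.178 (0.0919 to 0.316) and 0.194 (0.108 to 0.330) in the same order. The classes are made of the same cells that served to choose CPVL and LAPTM5, so like directions add no independent support. Cycling cells were 23.9% of cells at 2 mM and 27.2% at 0 mM. All 20 compared G2/M genes had a ratio below 1, with a median log2 ratio of -0.56. Of all 4105 compared genes, 52.6% had a ratio above 1. Among the 20, 9 were at least 1.5-fold lower at 2 mM, beside 3.31% of all compared genes. The part of the cell cycle in the ratios over all cells was not tested.

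CTSL and CTSD differed in size between the classes. CTSL had ratios of 1.47 (1.31 to 1.65) in interferon-high, 1.73 (1.43 to 2.09) in cycling and 1.05 (0.914 to 1.21) in the remaining cells, where it had 289.6 CPM at 2 mM against 276 CPM at 0 mM. CTSD had ratios of 0.641 (0.607 to 0.678), 0.830 (0.785 to 0.877) and 0.695 (0.667 to 0.725) in the same classes. In interferon-high cells CTSD thus passed 1.5-fold, with 2365 CPM at 2 mM against 3688 CPM at 0 mM. LAPTM4B had ratios of 1.32, 1.28 and 1.38, and CTSZ 1.41, 1.21 and 1.21, with intervals that included 1 in each class except for LAPTM4B in the remaining cells. Differences between classes were not tested, since each class has 1 library per dose.

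**Figure D4:**
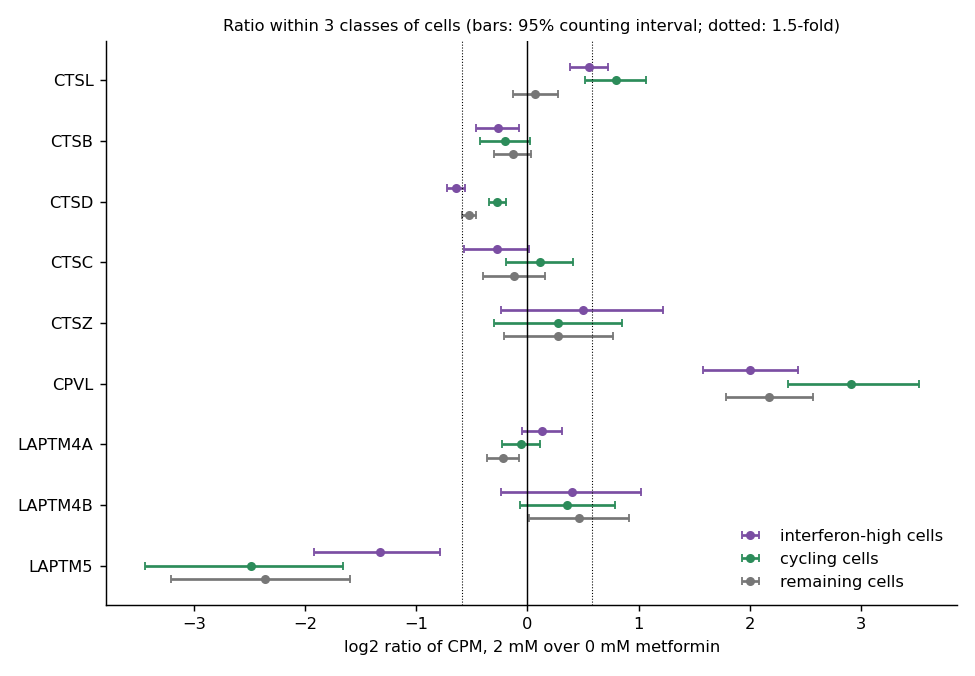
Log2 ratio of CPM at 2 mM over 0 mM for each gene within interferon-high, cycling and remaining cells, with 95% counting intervals and dotted lines at 1.5-fold. CPVL lay above 1.5-fold and LAPTM5 below it in each class, and CTSL was near 0 in the remaining cells only, at 0.072.

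The genes whose levels most resembled those of CPVL were sought by Pearson's r of log2(CPM + 5) over 6 points, the 3 classes of each library. The points of a library share its preparation and depth, so the values are descriptions. The 5 genes with the highest r for CPVL were AIMP1 (0.986), KIAA1217 (0.983), GCHFR (0.982), LARP6 (0.981) and EREG (0.978). Only GCHFR, a regulator of tetrahydrobiopterin synthesis, came near CPVL in size, with 113, 96.6 and 137 CPM in interferon-high, cycling and remaining cells at 2 mM and 31.4, 24.8 and 39.9 CPM at 0 mM. AIMP1 ran only from 108 to 126 CPM over the 6 points. For LAPTM5 they were AAED1 (0.990), GTF2B (0.975), C4BPB (0.973), RAP2B (0.971) and GLUD1 (0.970). C4BPB, a chain of the complement regulator C4b-binding protein, had 30.7, 11.8 and 12.9 CPM at 2 mM and 78.3, 37.6 and 37.1 CPM at 0 mM. Between members, the rank correlation over single cells at 1000 UMIs ran from -0.036 to 0.11 over 36 pairs at 2 mM and from -0.054 to 0.11 at 0 mM, values too weak in such sparse counts to be a finding.

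Counts of other lysosomal genes past 1.5-fold are to be read beside the 5.04% higher and 3.31% lower among all compared genes, most of which lay within 1.5-fold too. Of 16 further lysosomal proteases and peptidases 7 were compared, and 0 of them passed 1.5-fold in either direction, with a median log2 ratio of 0.13. The highest were CTSS (1.23), CTSH (1.17) and DPP7 (1.15), and the lowest the carboxypeptidase gene SCPEP1 (0.714), CTSA (0.911) and LGMN (0.923). SCPEP1, a serine carboxypeptidase as CPVL is, had 131 CPM at 2 mM against 184 CPM at 0 mM. The cathepsin inhibitor genes CST3, with 1666 CPM at 2 mM against 1565 CPM at 0 mM, and CSTB, with 619 and 603 CPM, were nearly level.

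Among 15 compared hydrolases and activators, 1 was at least 1.5-fold higher, the fucosidase gene FUCA1 (115 CPM at 2 mM against 73.4 CPM at 0 mM, ratio 1.56), and 0 were lower. GAA (1.46) and the thiol reductase gene IFI30 (1.36) followed, and PPT1 (0.771) and GUSB (0.784) were lowest. None of the 6 compared genes of the membrane list, which includes the soluble lysosomal protein NPC2, passed 1.5-fold. Nor did 10 subunits of the V-ATPase, the pump that acidifies lysosomes, or 7 sorting genes. The medians were -0.036, 0.13 and 0.056 in this order. Named by the same rule, the genes of the membrane list were LITAF (1.03), CD63 (0.989), SCARB2 (0.980), LAMP1 (0.971), NPC2 (0.918) and LAMP2 (0.790). In the V-ATPase they were ATP6AP2 (1.45), ATP6AP1 (1.30), ATP6V1F (1.29), ATP6V1H (0.947), ATP6V1C1 (0.816) and ATP6V1E1 (0.790). IGF2R (1.48) and SORT1 (1.35), receptors that carry hydrolases to the lysosome, and VPS35 (1.06) were the 3 highest of the compared sorting genes, and AP1M1 (1.03), GNPTG (0.939) and VPS26A (0.846) the 3 lowest. The transcription factor genes TFEB (17 UMIs at 2 mM and 29 at 0 mM), TFE3 (117 and 128) and MITF (6 and 14) were below the minimum. The ubiquitin ligase genes NEDD4L and ITCH, whose family binds LAPTM5, had ratios of 0.961 and 0.732.

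**Figure D5:**
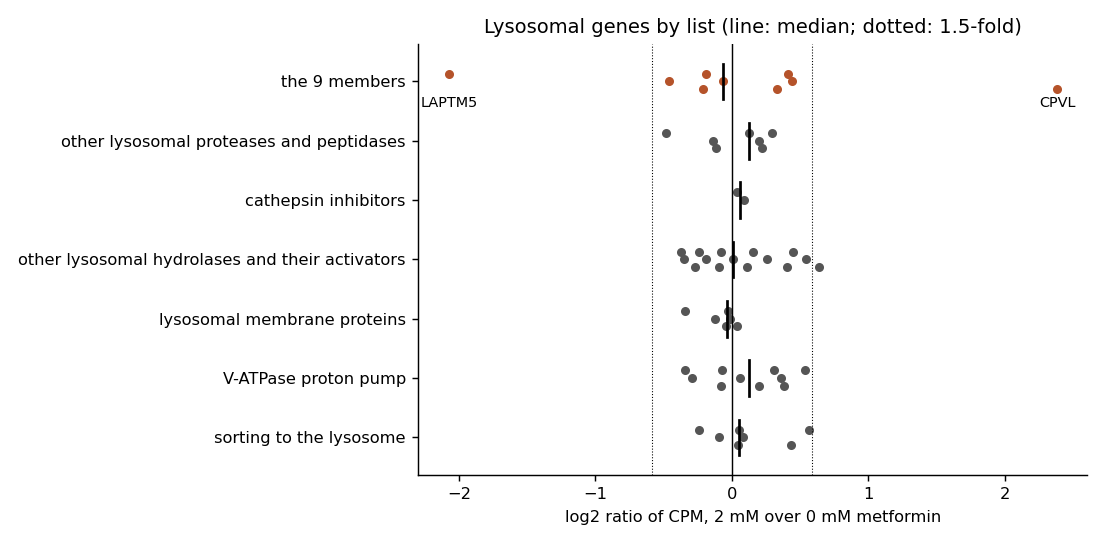
Log2 ratio of CPM at 2 mM over 0 mM for each compared gene of 7 lists, with a line at each list's median and dotted lines at 1.5-fold. CPVL stood at 2.38 and LAPTM5 at -2.07. Both were selected on this ratio, so nothing is read from their distance to the other genes. Of the other compared lysosomal genes, only FUCA1 passed 1.5-fold. Genes below the minimum are not shown.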

How the data were processed

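The authors deposited whole counts of UMIs for 19826 genes in 2000 barcodes, 1000 of each library, in 1 table whose column names give the library. Per the submitters' processing notes, STAR 2.5.0a, bcl2fastq and build hg19 were used. How barcodes were picked, UMIs collapsed, genes annotated and strand treated is not given in the sources used here. A minimum of 500 UMIs and 300 genes was set per barcode. Counts were summed per library and scaled to CPM with Python 3.11.15. Ratios (2 mM over 0 mM) have an exact conditional Clopper-Pearson interval, sums have exact Poisson and shares exact binomial intervals. The ratio computation was checked on simulated data. A sum of 3 counts is 0.919 CPM at 2 mM and 0.681 CPM at 0 mM. No doublet caller was run. Thinning to 1000 UMIs left out 191 cells at 2 mM and 56 at 0 mM. Named genes were all members and up to 3 genes at either end of each list. A gene that this rule names is not reported here. The members and lists were chosen with earlier results of these data known. Alternatives covered barcode filters, merged barcodes, scaling (TMM from edgeR 4.0.16), cell weights, thinning depth and the interferon limit.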

Additional observations from a re-analysis of the deposited data

Results flagged for a closer look

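In 3 genes a contrast had opposite signs in groups of cells or in the 2 libraries. The difference was not tested, as each dose had 1 library. The log2 ratio of CTSC at 2 mM over 0 mM was -0.28 in interferon-high, 0.11 in cycling and -0.12 in remaining cells, and each interval included a ratio of 1. That of LAPTM4A was 0.13, -0.056 and -0.22 in the same order, and only the interval of the remaining cells lay apart from a ratio of 1. Between interferon-high and other cells, LAPTM4A had a log2 ratio of 0.21 at 2 mM and -0.049 at 0 mM. Its ratio interval at 0 mM, 0.884 to 1.06, included 1. For CTSD the log2 ratio was -0.020 at 2 mM and 0.25 at 0 mM. Its ratio interval at 2 mM, 0.934 to 1.04, included 1.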

How the results depend on the processing

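CPVL kept a log2 ratio between 2.30 and 3.02 and LAPTM5 between -2.51 and -2.01 under the 11 alternatives run. CPVL had 2.97 with cells weighted equally, 2.76 with cells thinned to 1000 UMIs before summing, an alternative chosen after seeing the data, and 3.02 without the 1% of cells richest in it. LAPTM5 had -2.51 without its richest 1% of cells. With equal weights and with thinning 2 members were at least 1.5-fold higher, CTSZ joining CPVL. The count of genes at least 1.5-fold lower was 223 with TMM factors and 207 with median-of-ratios size factors. Thinning gave 385 higher and 276 lower genes, and no CPM minimum, which admits genes of low counts, 1042 and 544; the causes of the other shifts were not tested. Of 99 alternative values of member ratios 90 stayed within the counting interval, and the rest kept their direction. Of 54 for the interferon contrast 49 stayed within it. There CPVL at 0 mM had -0.11 at 10 or more interferon-list UMIs and 1.005 without the deepest 5% of barcodes, beside 0.55. CTSL moved in both libraries and kept its direction. At 2 mM it had 1.09 without the deepest 5% of barcodes, beside 1.35. At 0 mM it had 0.89 at 10 or more interferon-list UMIs, beside 1.19. CTSD at 0 mM had 0.33 at 3 or more such UMIs, beside 0.25. Without thinning, which leaves the deeper 0 mM cells with more UMIs, 6 members' share differences moved, and those of CTSL and LAPTM4B were -6.48 and -0.93 points, beside 0.75 and 1.54 thinned. Depth limited LAPTM5 most, with 65 UMIs at 2 mM.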

Other observations

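Outside the genes that reached the minimum, CST1, CST2 and CST4, of the 5 cystatin genes CST1, CST2, CST4, CST6 and CST7 whose products inhibit cysteine proteases, had over 1.5 times the CPM at 2 mM. These 3 were singled out after their values were seen. With no CPM minimum, 1042 genes were at least 1.5-fold higher at 2 mM and 544 lower, against 207 and 136 with it. The share past 1.5-fold among genes under the minimum was not computed, so nothing is read from the count of 3. CST1 had 45 UMIs at 2 mM and 19 at 0 mM, a ratio of CPM of 3.19 (1.83 to 5.78). CST2 had 61 UMIs at 2 mM and 24 at 0 mM, a ratio of 3.43 (2.11 to 5.75), and CST4 had 44 UMIs at 2 mM and 6 at 0 mM, a ratio of 9.89 (4.1996 to 28.4). CST6 had 29 UMIs at 2 mM and 61 at 0 mM, a ratio below 1 of 0.641 (0.397 to 1.01), and CST7 had 115 and 112 UMIs, a ratio of 1.38 (1.06 to 1.81). CST1, CST2 and CST4 are close copies of each other, so reads may be split between them in counting, and each value comes from 1 library per dose.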
